A study of Homo sapiens with 16 samples.

Results

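The 10 genes described here set or mark the state of melanoma cells. They are the lineage transcription factors MITF, SOX10, PAX3 and TFAP2A, the neural crest factor SOX9, the repressors ZEB1, ZEB2 and SNAI2, and the receptors EDNRB and MC1R. They were chosen by symbol, and each symbol matched 1 of the 60676 Ensembl identifiers of the count tables. Of the 10, 9 had enough reads to be tested among 19247 genes, and SOX9 did not.

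The RNA came from A101D and MeWo, established lines of human melanoma cells, and 8 libraries of total RNA were made from each. A101D is labelled as methionine dependent and MeWo as methionine independent, so that MeWo can grow when homocysteine stands in for methionine. All cultures were grown in medium without methionine, to which 150 µM cystine and either 200 µM methionine (control) or 200 µM homocysteine were added. No label says which library had which medium, so the media were not compared, and the spread within a line includes any effect they had. Each line also differs from the other in its whole genetic background, with 1 line of each kind, so that methionine dependence and line identity cannot be told apart. Values are given per line, and separately for replicates 1 to 4 and replicates 5 to 8 as numbered in the titles. No label says what sets these sets of replicates apart or whether replicates were separate cultures, so p-values measure only the spread between these samples, which may be technical.

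MITF is the basic helix-loop-helix leucine zipper factor that drives pigment cell genes such as TYR, TYRP1 and DCT. In the melanocyte lineage SOX10, PAX3 and cyclic AMP signalling, the last through MC1R and the factor CREB, act on its melanocyte promoter. Melanoma cells are often placed on an axis between a melanocytic state, with high MITF and SOX10, and an invasive or dedifferentiated state, with low MITF and high AXL and often SOX9. Along this axis ZEB2 and SNAI2 are known to go with the melanocytic state and ZEB1 with the invasive one, whereas in carcinoma all of these repressors act against epithelial genes.

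Sequence windows of RefSeq (GRCh38.p14), which run from 250 bases before to 50 bases after a start, were at hand for 7 of the 10 genes. They are shown because MITF and ZEB1 differed most between the lines among the 9 tested members. CATGTG, the core of the MITF binding site, is called the M-box here. It is shown because it occurs in windows of pigment cell genes such as TYR, TYRP1 and DCT, though not in that of MLANA. The 250 bases before the most downstream MITF start, the melanocyte promoter, lie at chr3:69936342-69936591 (plus strand), within the MITF gene. Capitals mark the palindromic cyclic AMP response element TGACGTCA.
MITF: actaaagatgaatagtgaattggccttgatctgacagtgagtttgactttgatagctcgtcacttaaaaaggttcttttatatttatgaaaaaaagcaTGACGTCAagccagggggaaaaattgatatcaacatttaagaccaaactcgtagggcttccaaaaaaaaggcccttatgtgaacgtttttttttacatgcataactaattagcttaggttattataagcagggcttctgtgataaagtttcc
It was the only match to TGACGTCA in the 17 windows of these genes, and 1.85% of all 35116 windows hold one.

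The ZEB1 stretch lies at chr10:31318966-31319215 (plus strand) and is the 250 bases before the ZEB1 start with the most E2-boxes. Capitals mark the E2-box CACCTG, or CAGGTG on the other strand, which the ZEB and SNAIL repressors bind.
ZEB1: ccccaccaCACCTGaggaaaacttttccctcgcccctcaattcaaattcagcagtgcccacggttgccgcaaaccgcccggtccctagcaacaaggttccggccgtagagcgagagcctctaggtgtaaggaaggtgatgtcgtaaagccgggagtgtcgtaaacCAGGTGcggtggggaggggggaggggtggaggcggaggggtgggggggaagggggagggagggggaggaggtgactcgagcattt
E2-boxes occur in 20.6% of all windows and in 3 of the 17 windows of these genes (17.6%), or in 24.1% of all genes with a window and 2 of the 7 members (28.6%).

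The M-box, searched as CATGTG and, for the other strand, CACATG, was found in windows of EDNRB, MC1R, ZEB1 and ZEB2 among the members. That is 4 of the 7 members with a window (57.1%), against 13.4% of all genes with a window. By window, it is 4 of the 17 (23.5%), against 11.1% of all windows. Stretches of 30 bases with the M-box in capitals follow for EDNRB, MC1R and ZEB2 and for pigment genes, each read on the strand of its gene. The ZEB1 matches, in another window than the one above, are not printed.
EDNRB, chr13:77919816-77919845 (minus strand): gctgccgggtgtCACATGgtgcgtgataac
MC1R, chr16:89918786-89918815 (plus strand): tcacgcccccggCATGTGgccgccctcagt
ZEB2, chr2:144520282-144520311 (minus strand): cgatcacgttttCACATGatgctcacgctc
TYR, chr11:89177759-89177788 (plus strand): agaaaagtcagtCATGTGcttttcagagga
TYRP1, chr9:12693229-12693258 (plus strand): ttggaagggaatCATGTGctgatcaagtcc
DCT, chr13:94479799-94479828 (minus strand): tgcactttgggtCATGTGctaatgatgagg
TRPM1, chr15:31101764-31101793 (minus strand): ggcccaagtgctCACATGctcctcatgggg
Of the 22 listed MITF target genes with a window, 16 held an M-box (72.7%), against 13.4% of all genes with a window. By window, the share was 41.3% against 11.1%. The AP-2 motif of TFAP2A, GCCNNNGGC, was in windows of 3 of the 7 members (42.9%), against 26.6% of all genes. By window, it was in 3 of the 17 (17.6%), against 23.2% of all windows. These matches describe letters in short windows and were not tested as binding sites.

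The libraries held 28910881 to 38961862 counts. Levels are CPM, counts per 1e6 after scaling each library by its trimmed mean of M-values (TMM), or, to compare genes with each other, CPM per kb of exon (RPKM). The exon length joins all annotated exons of a gene, with 25058 bases for ZEB2 and 3392 for SNAI2. The order of genes by RPKM therefore depends on the annotation. Genes were tested with limma-voom, p-values were adjusted over all 19247 genes, and the threshold was an adjusted p of 0.05. The 7 melanocytic markers MLANA, PMEL, TYR, DCT, TYRP1, S100B and S100A1 summed to 2078 to 2873 CPM per A101D library and 9277 to 10450 CPM per MeWo library. Most of the MeWo sum was PMEL, with a mean of 6640 CPM (223 in A101D). MLANA, PMEL, TYR and TYRP1 had higher means in MeWo. The means of S100B (610 CPM in A101D and 131 in MeWo), S100A1 (48.3 and 3.95) and DCT (1497 and 504) were lower there. All 7 had counts in both lines. TYRP1, with 0.914 ± 0.605 CPM (SD, n = 8), was the A101D marker below 1 CPM on average. In MeWo replicate 2, 34471 genes had a count, more than in the other 7 libraries of that line (30066 to 31433).

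Per kb of exon, SOX10 was the most abundant of these genes in both lines, with a median of 101.9 RPKM in A101D and 123.7 in MeWo, and MITF was the next. In MeWo, SOX10, MITF (77.4 RPKM) and SNAI2 (27.5) were each separated from the gene below by a gap in which no library fell. Further down, the ranges of TFAP2A (12.4) and ZEB2 (11.4) over libraries overlapped, although TFAP2A was above ZEB2 within each MeWo library. EDNRB (10.5), PAX3 (7.60) and MC1R (3.22) followed without overlap. In A101D the ranges over libraries set only SOX10 apart at the top. The range of MITF (24.5 RPKM) overlapped that of SNAI2 (20.01), which overlapped that of EDNRB (12.7). Below EDNRB came ZEB2 (8.21), PAX3 (6.62) and TFAP2A (5.49), each overlapping the next, and then MC1R (1.25) and ZEB1 (0.854), which also overlapped. Within each A101D library, however, the genes from SOX10 down to ZEB1 kept the order of these medians. SOX9 was at the bottom in A101D (0.0814 RPKM), and in MeWo both SOX9 and ZEB1 had a median of 0.

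**Figure D1:**
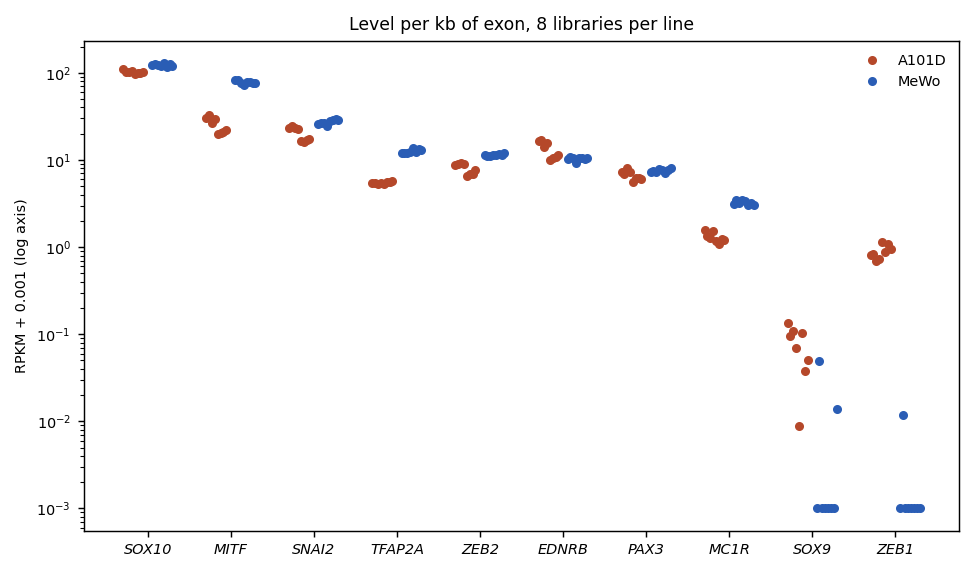
Level per kb of exon of the 10 genes in each of the 8 A101D and 8 MeWo libraries, as RPKM + 0.001 on a log axis, so that a library without counts sits at the bottom. SOX10 was highest in both lines, and ZEB1 had a median of 0.854 RPKM in A101D and was at 0 in 7 of 8 MeWo libraries.

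The lineage factors were all higher in MeWo than in A101D, by very different amounts. All 9 tested members passed the threshold between the lines, 7 higher and 2 lower in MeWo, beside 79.0% of all tested genes that passed (38.5% higher and 40.5% lower). In 7 of the 9 no A101D library lay within the MeWo range, as in 57.7% of all tested genes. Counts of that kind say little about these genes, and the sizes carry the description.

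MITF had the largest difference of the lineage factors. Its level in A101D ran from 143 CPM through a median of 176 to 238, and in MeWo from 514 through 556 to 597. Every MeWo library was thus more than 2-fold above every A101D library. The log2 fold change (MeWo minus A101D) was 1.64 ± 0.10 (SE), or 3.12-fold, with a limma-voom adjusted p of 5.76e-11. TFAP2A, an AP-2 factor that acts with MITF on pigment cell genes, ran from 44.0 to 47.5 CPM (median 45.4) in A101D and from 99.2 to 112.8 (median 102.3) in MeWo. Its log2 fold change was 1.20 ± 0.04, or 2.30-fold (limma-voom adjusted p = 2.87e-15).

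SOX10 and PAX3, which act upstream of MITF, differed far less. SOX10 ran from 356 to 407 CPM (median 378) in A101D and from 430 to 481 (median 459) in MeWo. The libraries did not overlap, and the difference was 0.28 ± 0.03 on the log2 scale, or 1.21-fold (limma-voom adjusted p = 6.38e-07). PAX3 ran from 44.0 to 63.9 CPM (median 52.6) in A101D and from 56.8 to 64.3 (median 60.4) in MeWo, so its libraries overlapped, with a log2 difference of 0.19 ± 0.06 (limma-voom adjusted p = 0.0146). Within a library, the log2 ratio of MITF to SOX10 in CPM averaged -1.08 for A101D (SD 0.26) and 0.29 for MeWo (SD 0.07), over 8 libraries each. MITF was therefore below SOX10 in each A101D library (-1.35 to -0.66) and above it in each MeWo library (0.19 to 0.39) on this scale, which is not per length.

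The members were also compared between the lines within each set of replicates. In replicates 1 to 4, 6 were higher and 2 lower in MeWo, beside 81.5% of all tested genes that passed (38.9% higher and 42.6% lower). In replicates 5 to 8, 7 were higher and 1 lower, beside 85.3% (41.6% higher and 43.7% lower). PAX3 did not pass in replicates 1 to 4, nor EDNRB in replicates 5 to 8. The PAX3 difference was 0.02 ± 0.04 on the log2 scale in replicates 1 to 4 (limma-voom adjusted p = 0.671) and 0.35 ± 0.05 in replicates 5 to 8 (adjusted p = 7.77e-09). The MITF difference passed in both, with 1.39 ± 0.05 in replicates 1 to 4 and 1.89 ± 0.05 in replicates 5 to 8.

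**Figure D2:**
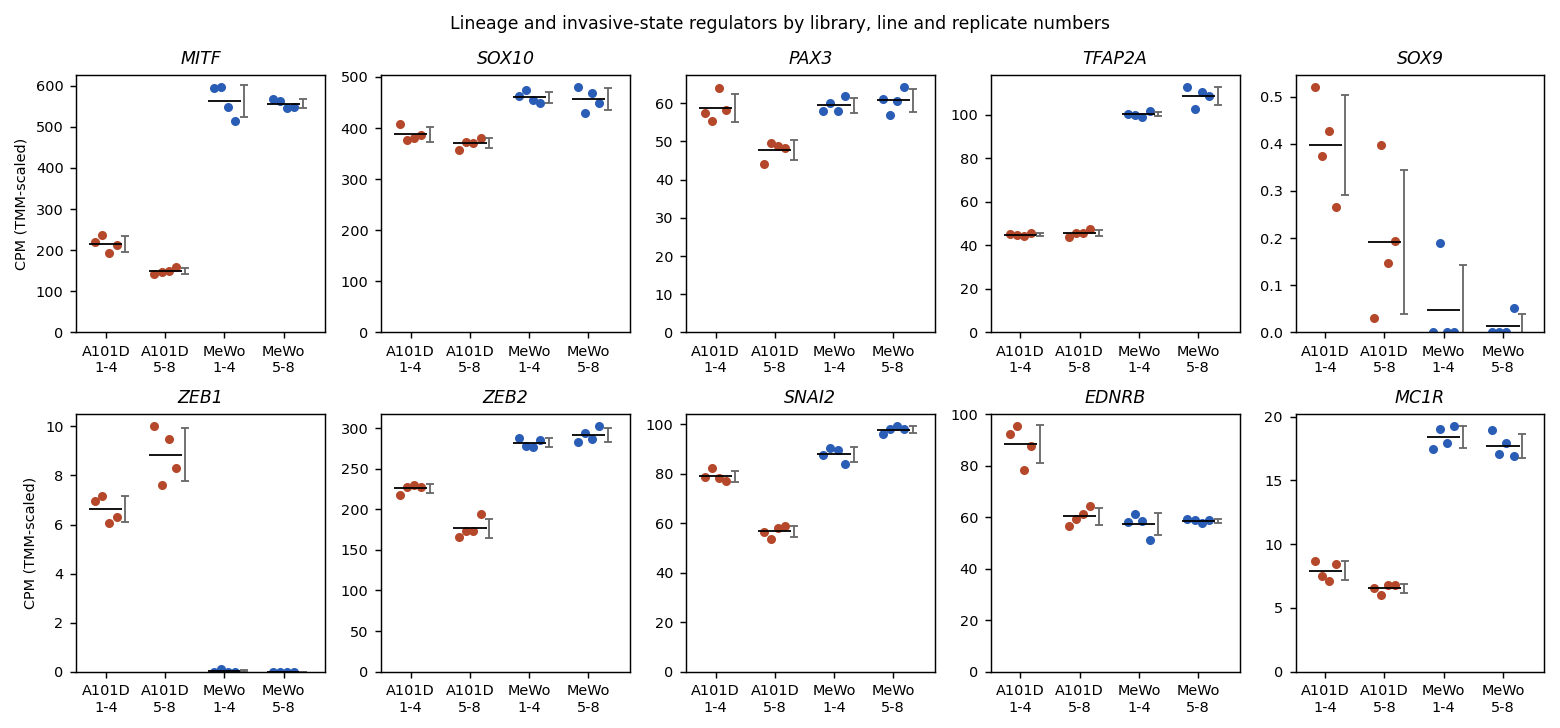
TMM-scaled CPM of each gene per library (points) for A101D and MeWo, replicates 1 to 4 and 5 to 8, with the mean (line) and SD (bar) of the 4 libraries. Each panel has its own axis from 0, and MITF, TFAP2A and MC1R sit higher in all MeWo libraries while ZEB1 is seen in A101D.

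The 3 repressors did not move as a group between the lines. ZEB1 was present in A101D and nearly without reads in MeWo, while ZEB2 and SNAI2 were both higher in MeWo. The A101D libraries held 267, 230, 170 and 213 ZEB1 counts in replicates 1 to 4 and 324, 287, 324 and 300 in replicates 5 to 8. In MeWo, replicate 2 held 3 counts and the other 7 libraries held none. No A101D library came near the MeWo values. ZEB1 had enough reads to be tested through its A101D libraries alone, so no p-value is given for this difference. The sums were 2115 counts against 3, a ratio of depth-scaled counts of 702, with an exact 95% interval from 240.0 to 3409 that covers counting error only. Without MeWo replicate 2, ZEB1 was 620-fold lower in MeWo if 3 counts summed over its 7 libraries are taken as the floor. The exact 95% lower bound of that ratio was 504.

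Transcripts beside ZEB1 differed in their pattern. ZEB1-AS1, an antisense transcript at chr10:31206278-31320447 (minus strand, GRCh38) that shares 366 exon bases with ZEB1, had 229 counts in A101D and none in MeWo. It was at least 76.1-fold lower in MeWo, taking 3 counts summed over 8 libraries as the floor. LYZL2, a lysozyme-like gene beside ZEB1, had 1 count in A101D and none in MeWo, so it was not compared. ZNF438, a zinc finger gene, was at 6.74 ± 1.99 CPM in A101D and 4.74 ± 0.88 in MeWo (SD, n = 8), with overlap (log2 fold change -0.47 ± 0.18, limma-voom adjusted p = 0.0229). On the other side KIF5B, a kinesin motor gene, was at 339 ± 14 and 526 ± 15 CPM (SD, n = 8) and higher in MeWo by 0.63 ± 0.03 (limma-voom adjusted p = 4.83e-12). ZNF438 and KIF5B thus had reads in every library of both lines.

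ZEB2, which melanocytes need to differentiate, ran from 166 to 230 CPM (median 206) in A101D and from 277 to 302 (median 286) in MeWo. It was higher in MeWo in every library, with a log2 fold change of 0.52 ± 0.07, or 1.44-fold (limma-voom adjusted p = 2.52e-06). SNAI2, also called SLUG and needed for migrating melanoblasts, ran from 53.8 to 82.2 CPM (median 67.9) in A101D and from 83.8 to 99.3 (median 93.2) in MeWo. The gap between the highest A101D and the lowest MeWo library was narrow, and the log2 fold change was 0.47 ± 0.09, or 1.39-fold (limma-voom adjusted p = 0.000142). In A101D the log2 ratio of ZEB2 to ZEB1 in CPM was 4.71 ± 0.45 (SD, n = 8), so ZEB2 was the more abundant by reads in the line that had both.

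SOX9 was at the edge of detection. It had 20, 12, 12 and 9 counts in A101D replicates 1 to 4 and 1, 15, 5 and 7 in replicates 5 to 8. In MeWo it had 6 counts in replicate 2, 2 in replicate 8 and none in the other 6 libraries. The ratio of depth-scaled counts was 10.1 (exact 95% interval 4.88 to 24.2, counting error only), or 35.6 (9.55 to 299) without MeWo replicate 2. With the filter on low counts relaxed to 4 libraries, an alternative chosen after seeing the data, SOX9 entered the tests through A101D libraries alone. No MeWo library was above 0.189 CPM, so no p-value is given for its line difference. SOX9 was far below SOX10 per length in every library of both lines.

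The receptors moved in opposite directions. MC1R, the melanocortin receptor that raises cyclic AMP in melanocytes, ran from 5.99 to 8.70 CPM (median 6.95) in A101D and from 16.9 to 19.3 (median 17.9) in MeWo. No libraries overlapped, and MC1R was higher in MeWo by 1.33 ± 0.07 on the log2 scale, or 2.51-fold (limma-voom adjusted p = 7.48e-12). EDNRB, the endothelin receptor needed for the migration and survival of melanoblasts, ran from 56.5 to 95.3 CPM (median 71.3) in A101D and from 51.3 to 61.3 (median 58.8) in MeWo. Its libraries overlapped, and its log2 difference was -0.33 ± 0.11 (limma-voom adjusted p = 0.0091). Within replicates 1 to 4 EDNRB was lower in MeWo by a log2 difference of -0.63 ± 0.05 (adjusted p = 9.6e-13). Within replicates 5 to 8 the difference was -0.04 ± 0.05 and did not pass (limma-voom adjusted p = 0.472).

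Between replicates 1 to 4 and 5 to 8 of A101D, most of these genes fell, and ZEB1 rose. Of the 9 tested members, 7 passed the threshold, 1 higher and 6 lower in replicates 5 to 8, beside 68.0% of all tested genes (34.0% higher and 34.1% lower). In the same 7 genes the libraries did not overlap, as in 62.3% of all genes. The split was named with earlier results of these data known, so its p-values describe the gap against the spread within each set of 4 libraries. The median log2 difference was -0.29 over the 9 members and 0.00 over all tested genes.

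MITF was at 219, 238, 192 and 212 CPM in A101D replicates 1 to 4 and at 143, 147, 150 and 159 in replicates 5 to 8. All of the later-numbered libraries were below all of the others, and MITF fell by 0.52 ± 0.05 on the log2 scale (limma-voom adjusted p = 1.2e-08). EDNRB was at 92.1, 95.3, 78.3 and 87.5 CPM and then at 56.5, 59.2, 61.4 and 64.3. It fell by 0.55 ± 0.05 (limma-voom adjusted p = 3.09e-11), and its later-numbered libraries overlapped those of MeWo. SNAI2 was at 78.7, 82.2, 78.2 and 76.9 CPM and then at 56.4, 53.8, 58.1 and 58.8. The sets were tight and far apart, and SNAI2 fell by 0.48 ± 0.04 (limma-voom adjusted p = 4.56e-14).

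ZEB2 was at 218, 228, 230 and 228 CPM in A101D replicates 1 to 4 and at 166, 173, 173 and 194 in replicates 5 to 8, a fall of 0.36 ± 0.04 on the log2 scale (limma-voom adjusted p = 4.54e-11). PAX3 (58.7 ± 3.7 to 47.7 ± 2.5 CPM, SD, n = 4) and MC1R (7.92 ± 0.76 to 6.53 ± 0.38 CPM) were lower by log2 differences of -0.29 each, with limma-voom adjusted p = 4.93e-07 and 0.00339. SOX10 and TFAP2A did not pass, with log2 differences of -0.07 ± 0.03 and 0.02 ± 0.04 (limma-voom adjusted p = 0.0789 and 0.602). SOX10 did pass with no filter on low counts (limma-voom adjusted p = 0.0306), with the filter in 4 libraries (0.0239) or without A101D replicate 2 (0.0424), and TFAP2A passed on total counts only (0.0128).

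ZEB1 was the one tested member that rose in A101D. It was at 6.96, 7.17, 6.05 and 6.32 CPM in replicates 1 to 4 and at 10.01, 7.61, 9.49 and 8.31 in replicates 5 to 8, without overlap. The log2 difference was 0.40 ± 0.10 (limma-voom adjusted p = 0.000443), and with limma-trend in place of voom the adjusted p was 0.425. Its antisense transcript ZEB1-AS1 rose from 0.478 ± 0.116 to 1.18 ± 0.20 CPM (SD, n = 4; log2 difference 1.30 ± 0.22, limma-voom adjusted p = 3.18e-06). ZEB2-AS1, antisense at the ZEB2 start, fell from 2.79 ± 0.14 to 1.23 ± 0.16 CPM (log2 difference -1.18 ± 0.17, limma-voom adjusted p = 8.28e-08). The log2 ratio of ZEB2 to ZEB1 was 5.10 ± 0.14 in replicates 1 to 4 and 4.32 ± 0.24 in replicates 5 to 8 of A101D (SD, n = 4), with no overlap.

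Other measures moved with these A101D sets. Genes with a count numbered 31281 to 33107 per library of replicates 1 to 4 and 34020 to 34607 per library of replicates 5 to 8. Mitochondrial genes took 1.71% to 1.92% and 1.93% to 2.33% of the counts. Summed CPM of the 3 endothelial markers VWF, PECAM1 and CDH5 were 3.74 to 4.77 and 15.3 to 19.9, most of it VWF, and none of the 3 was at 0 counts. Summed keratinocyte markers (KRT5, KRT14, KRT1 and KRT10) were 33.8 to 36.7 and 39.7 to 42.7 CPM, mainly KRT10, with KRT1 at 0. The 4 immune markers summed to 0.297 to 0.547 and 0.332 to 0.761 CPM, and the 5 fibroblast markers to 9.72 to 12.01 and 9.05 to 10.3. Their part in the results was not tested. In bulk RNA, fewer cells with a transcript and less of it per cell cannot be told apart.

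MeWo showed little of this. Of the 9 tested members, 2 passed between its replicate sets, both higher in replicates 5 to 8, beside 15.6% of all tested genes (7.20% higher and 8.42% lower). Both also had libraries that did not overlap, as in 18.3% of all genes. SNAI2 was at 87.7, 90.4, 89.6 and 83.8 CPM in MeWo replicates 1 to 4 and at 96.0, 98.0, 99.3 and 98.2 in replicates 5 to 8. It rose by 0.16 ± 0.04 on the log2 scale (limma-voom adjusted p = 0.00209), the opposite direction to A101D. TFAP2A was at 100.4 ± 1.1 and 108.7 ± 4.3 CPM (SD, n = 4), a rise of 0.11 ± 0.03 (limma-voom adjusted p = 0.0199) that did not pass with median-of-ratios factors (adjusted p = 0.082), with no filter (0.134), or without A101D replicate 6 or 7 or MeWo replicate 3, 5 or 7 (0.0579 to 0.0681).

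The other MeWo differences were small. MITF was at 593, 597, 547 and 514 CPM in replicates 1 to 4 and 569, 562, 545 and 549 in replicates 5 to 8, a log2 difference of -0.02 ± 0.05 (limma-voom adjusted p = 0.89). SOX10, PAX3, ZEB2, EDNRB and MC1R had log2 differences from -0.06 to 0.05, each with overlapping libraries. ZEB1, with 3 counts against none, is given no fold.

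The test of the difference between these differences (MeWo minus A101D) passed for 5 of the 9 members, all positive, beside 52.8% of all tested genes (27.9% positive and 24.9% negative). They were SNAI2 (0.63 ± 0.05, limma-voom adjusted p = 3.62e-13), EDNRB (0.59 ± 0.07, 4.19e-08), MITF (0.51 ± 0.07, 3.17e-06), ZEB2 (0.41 ± 0.05, 1.15e-08) and PAX3 (0.33 ± 0.06, 3.93e-05). SNAI2 was the one of the 5 that passed with opposite signs in the lines, and for the other 4 the MeWo difference alone did not pass. MC1R missed the threshold at 0.23 ± 0.10 (limma-voom adjusted p = 0.0622). It passed at a filter of 1 CPM (0.0487), with the filter in 4 libraries (0.0476), and without A101D replicate 2 or 3 or MeWo replicate 2, 4 or 8 (0.0285 to 0.0493). SOX10 (0.05 ± 0.05) and TFAP2A (0.09 ± 0.05) did not pass.

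**Figure D3:**
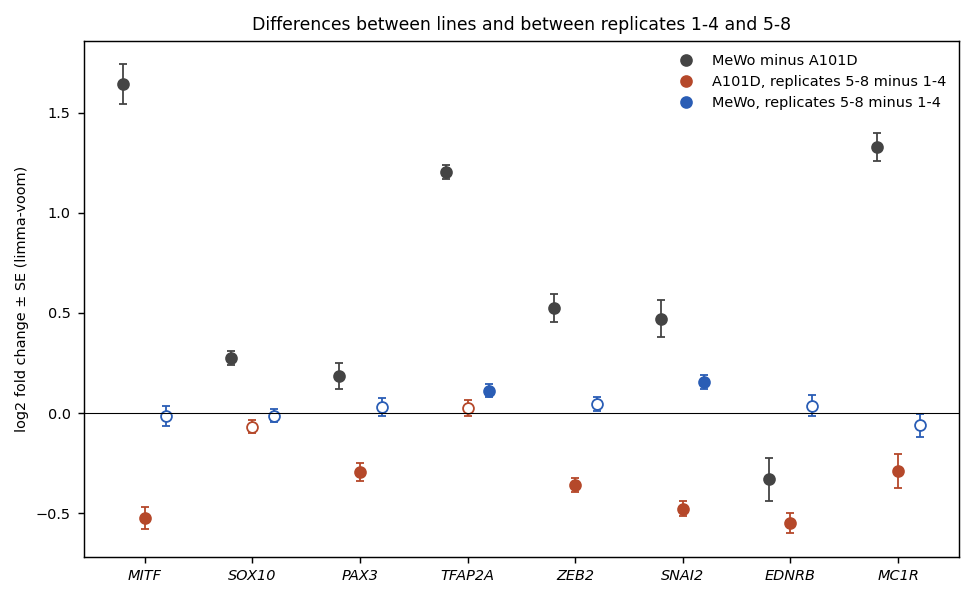
Log2 fold change ± SE of 8 tested genes between the lines (grey, MeWo minus A101D) and between replicates 5 to 8 and 1 to 4 in A101D (red) and MeWo (blue), with filled points past an adjusted p of 0.05 and open points not. ZEB1 is left out because its fitted line difference depends on the prior count, and the red points of MITF, PAX3, ZEB2, SNAI2, EDNRB and MC1R lie below 0 while the blue points stay close to it.

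Listed MITF target genes were mostly higher in MeWo, with exceptions among the best known. Of 30 tested, 23 were higher and 6 lower in MeWo, with a median log2 fold change of 1.88 against -0.02 over all tested genes. Counts of this kind in the lists that follow stand beside the shares of all tested genes that passed, which were 79.0% between the lines, 68.0% between the A101D sets and 15.6% between the MeWo sets. TYRP1, a melanosomal enzyme, was at 0.914 ± 0.605 CPM in A101D and 2361 ± 161 in MeWo (log2 fold change 11.62 ± 0.28). TYR, the rate-limiting enzyme of melanin synthesis, was at 1.52 ± 0.23 and 298 ± 14 CPM (7.61 ± 0.09), and OCA2, a melanosomal transporter, at 0.527 ± 0.273 and 90.9 ± 3.4 CPM (7.55 ± 0.19). DCT, which acts beside TYR and TYRP1 in melanin synthesis and has an M-box shown above, went the other way, with 1497 ± 208 CPM in A101D and 504 ± 40 in MeWo (-1.56 ± 0.08, limma-voom adjusted p = 2.96e-12). ACP5, an acid phosphatase, was also lower in MeWo (265 ± 16 against 54.3 ± 3.2 CPM, -2.29 ± 0.05), as was the adhesion molecule CEACAM1 (-2.11 ± 0.12). SDs are over 8 libraries per line.

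Between the A101D replicate sets, where MITF fell, 7 of these 30 targets rose and 17 fell (80.0% passed, against 68.0% of all tested genes, of which 34.0% rose and 34.1% fell), with a median log2 difference of -0.23. TRPM1, a melanocyte cation channel, fell by 2.32 ± 0.23 (limma-voom adjusted p = 1.97e-11), and TYRP1 rose by 1.89 ± 0.32. Both were low in A101D, at most 2.96 and 1.76 CPM in any library. DCT fell by 0.29 ± 0.08. In MeWo 5 rose and 1 fell, led by CAPN3 (0.52 ± 0.05), a protease, and BIRC7 (0.35 ± 0.04), an inhibitor of apoptosis.

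Markers of the invasive state ran mostly the other way, but AXL did not. Of 33 tested, 27 were lower and 5 higher in MeWo, with a median log2 fold change of -2.15. WNT5A, a Wnt ligand tied to invasion, was at 69.1 ± 4.9 CPM in A101D and 0.0850 ± 0.0611 in MeWo, with 18767 and 23 counts in all. CDH13, a cadherin without a cytoplasmic tail, had 7032 and 12 counts, and TPBG, a surface glycoprotein, 10715 and 56. AXL, the receptor kinase most used as a marker of this state, was higher in MeWo, at 141 ± 19 CPM in A101D and 359 ± 20 in MeWo (SD, n = 8; log2 fold change 1.36 ± 0.07, limma-voom adjusted p = 7.21e-12). PDGFC (1.35 ± 0.26) and FOXD1 (1.04 ± 0.07) were also higher there. Between the A101D replicate sets 17 of the 33 rose, with F2RL1 (2.20 ± 0.17) and PDGFC (1.59 ± 0.12) the furthest, and 11 fell, AXL among them (-0.33 ± 0.05). In MeWo none rose and 6 fell (18.2% of the 33, against 15.6% of all tested genes), among them PDGFC (-0.28 ± 0.08) and MYOF (-0.27 ± 0.04), a membrane repair protein.

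**Figure D4:**
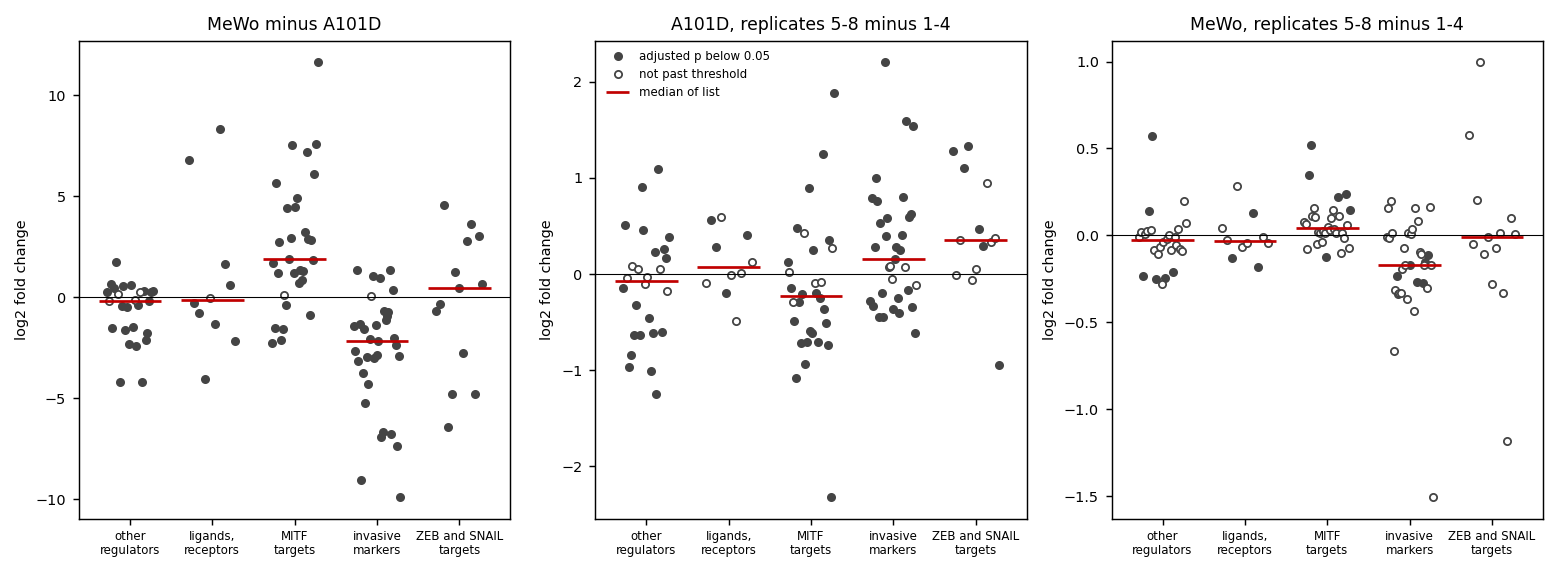
Log2 fold change of each tested gene (points) in 5 lists around these regulators, for MeWo minus A101D (left) and replicates 5 to 8 minus 1 to 4 in A101D (middle) and MeWo (right), with the list median as a red line and filled points past an adjusted p of 0.05. The vertical axes differ between panels, and the MITF targets have a median of 1.88 and the invasive-state markers one of -2.15 between the lines.

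The list of ZEB and SNAIL targets was divided between the lines. Of 23 listed, 13 could be tested, 7 higher and 6 lower in MeWo. The list holds epithelial genes that these factors repress and also the mesenchymal genes CDH2, VIM and FN1. Of these 3, VIM was among the higher (0.63 ± 0.17), and CDH2 (-0.34 ± 0.03) and FN1 (-2.78 ± 0.09) were among the lower. Higher were CDH3, P-cadherin (4.58 ± 0.22), MARVELD2, a tight junction protein (3.60 ± 0.36), and PKP3, a desmosomal plakophilin (3.01 ± 0.10). Lower were CLDN1 (-6.45 ± 0.53), OCLN (-4.82 ± 0.32) and CLDN4 (-4.79 ± 0.50), all of tight junctions. Levels of CDH3, MARVELD2 and OCLN were low even in the higher line, at most 2.82, 1.52 and 2.07 CPM in any library. CDH1, E-cadherin, was low in both lines, at 1.28 ± 0.59 CPM in A101D and 0.745 ± 0.208 in MeWo (SD, n = 8; log2 fold change -0.67 ± 0.29, limma-voom adjusted p = 0.0418, overlapping libraries). Between the A101D replicate sets 5 of the 13 rose, CLDN4 (1.33 ± 0.12), CDH1 (1.28 ± 0.19) and CLDN1 (1.10 ± 0.05) among them and FN1 too (0.47 ± 0.03), and 1, VIM, fell (-0.94 ± 0.04), while in MeWo none passed.

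Other regulators of the lineage and of mesenchymal transition were split as well, with 9 of 26 tested genes higher and 13 lower in MeWo and a median of -0.19. IRF4, which acts with MITF on TYR, was at 53.5 ± 7.7 CPM in A101D and 2.88 ± 0.68 in MeWo (SD, n = 8; log2 fold change -4.23 ± 0.14), so it went against MITF and TYR. TBX3 (-4.21 ± 0.34) and SOX5 (-2.42 ± 0.13), a SOX family factor that opposes SOX10 in melanocytes, were lower in MeWo, and ID2, an inhibitor of basic helix-loop-helix factors, was higher (1.72 ± 0.06). FOSL1, an AP-1 subunit, was higher too (0.67 ± 0.06). SNAI3 was higher by 0.58 ± 0.22, but its libraries overlapped and none was above 0.985 CPM. It did not pass within replicates 1 to 4 or 5 to 8 (limma-voom adjusted p = 0.065 and 0.0619). In A101D, the T-box repressor TBX2 fell by 1.25 ± 0.05 and TBX3 rose by 1.09 ± 0.06 between the replicate sets, where 8 of the 26 rose and 11 fell. In MeWo 2 rose and 4 fell, with IRF4 at 0.57 ± 0.16 and the homeobox factor MSX1 at -0.25 ± 0.08.

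Of 20 listed ligands and partners of the receptors, 10 were below the filter and 10 were tested. None of the melanocortin receptors MC2R, MC3R, MC4R and MC5R, the ligand precursor POMC, the endothelin ligands EDN2 and EDN3 or the receptor EDNRA could be tested. EDN1, a ligand of EDNRB, had 221 counts in A101D and 12 in MeWo (log2 fold change -4.05 ± 0.41). KIT, the receptor for stem cell factor in melanoblasts, was at 0.246 ± 0.077 CPM in A101D and 78.9 ± 4.6 in MeWo, and its ligand KITLG at 17.6 ± 0.7 and 54.4 ± 4.5 (SD, n = 8). ADCY2, an adenylate cyclase, was higher in MeWo (6.79 ± 0.32), at most 0.117 CPM in any A101D library and 6.88 in any MeWo library. GNAS, the G protein that couples MC1R to cyclases, was lower in MeWo (594 ± 6 against 235 ± 10 CPM, -1.34 ± 0.03). MRAP2, an accessory protein of melanocortin receptors, was also lower in MeWo (-2.17 ± 0.11). Of the 10 tested genes, 4 were higher and 5 lower in MeWo. Between the A101D replicate sets 3 rose and 1 fell, led by ATRN (0.56 ± 0.03) and MGRN1 (0.41 ± 0.05), both of which act against melanocortin signalling. In MeWo 1 rose, KIT (0.13 ± 0.04), and 2 fell, among them KITLG (-0.18 ± 0.04).

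Markers of other cell types were also measured. Of 16 listed, 10 could be tested, and 5 were higher and 5 lower in MeWo. The fibroblast markers COL1A1, COL3A1, DCN, LUM and PDGFRB summed to 9.05 to 12.01 CPM per A101D library and 75.9 to 85.6 per MeWo library, most of it LUM (1.70 ± 0.53 and 73.9 ± 3.5 CPM, SD, n = 8). LUM (5.47 ± 0.12), DCN (6.53 ± 0.39), both matrix proteoglycans, and the lysosomal protein CD68 (3.21 ± 0.19) were higher in MeWo. PDGFRB (-4.62 ± 0.21), KRT14 (-3.41 ± 0.53) and VWF (-2.86 ± 0.54) were lower. Between the A101D replicate sets 7 rose and 1 fell, with a median of 1.09, and in MeWo none passed. COL3A1 (3.02 ± 0.46) and DCN (2.37 ± 0.52, overlapping libraries) rose the furthest in A101D. Both stayed near the floor there, at most 0.424 and 0.239 CPM in any A101D library. Their part in the line differences was not tested.

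Some counts could have been shared with overlapping genes. For genes on opposite strands this depends on the strand setting of the counting, which is not given in the sources used here. TCF25 and the clone-named genes AC092143.1 and AC092143.3 lie on the same strand as MC1R, so that setting would not separate them. MC1R shares 1192 exon bases with AC092143.1, 358 with AC092143.3 and 899 with AC092143.2, a clone-named gene on the opposite strand. It shares 547 exon bases with TCF25, which was higher in MeWo by 0.54 ± 0.06, less than MC1R. TCF25 rose between the A101D replicate sets (0.24 ± 0.04), where MC1R fell. SOX10 shares 89 exon bases with POLR2F, which was lower in MeWo (94.9 ± 13.0 against 65.7 ± 2.9 CPM, SD, n = 8). TFAP2A shares 941 exon bases with TFAP2A-AS2, which was higher in MeWo by 1.21 ± 0.12, the same size as TFAP2A, at 3.99 ± 0.49 and 9.28 ± 1.71 CPM. TFAP2A-AS1, which shares 438 exon bases, did not differ past the threshold (0.03 ± 0.14, limma-voom adjusted p = 0.871), and ZEB2-AS1, which shares 1299 exon bases with ZEB2, was higher in MeWo (0.84 ± 0.21) with overlapping libraries. EDNRB-AS1 and SOX9-AS1 share no exon bases with EDNRB or SOX9. These 2, RNF219-AS1 (80 exon bases shared with EDNRB) and 3 clone-named genes at MC1R each had 49 counts or fewer in either line and were not tested. Values of SOX10, MC1R, TFAP2A, ZEB1, ZEB2 and EDNRB are uncertain to that extent.

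The genes whose profile over the 16 libraries lay closest to each member, by Euclidean distance of centred log2 CPM, were SMARCD2 (0.24) and SPECC1 (0.28) for MITF and OGFOD3 (0.16) and AREL1 (0.17) for SOX10. LAMB2 (0.25) and SHISA5 (0.25) lay closest to PAX3, and CHD3 (0.18) and HDAC11 (0.24) to TFAP2A. ANO2 (1.08) and LINC00383 (1.30) were closest to ZEB1, with means of 6.74 and 7.65 CPM in A101D and of 0.00789 and 0.00394 CPM in MeWo. HEATR3 (0.18) and TMEM65 (0.20) were closest to ZEB2, SLC37A4 (0.23) and HNRNPA3 (0.25) to SNAI2, QDPR (0.19) and DLAT (0.25) to EDNRB, and GALNS (0.29) and ITPKB (0.33) to MC1R. These distances describe levels over 2 lines and share the line difference and the replicate sets.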

How the data were processed

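Total RNA of 16 libraries, 8 of A101D and 8 of MeWo, was made into stranded libraries, as the labels' protocols state. In the tables the authors deposited, 1 for each line, every cell joins an Ensembl identifier with the whole-number count of reads of that gene, and the count was split off first. The submitters' processing notes name Trimmomatic 0.39-1, STAR 2.7.1a, featureCounts 2.0.0 and GRCh38, while neither strand setting nor annotation release is given in the sources used here. Because the columns as deposited do not read as counts, limma-voom was the main test. All 16 columns were matched to samples by line and replicate number. Symbols covered 60357 of the 60676 identifiers, and GENCODE v29 (GRCh38) 58503, which gave positions and exon lengths.

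Trimmed mean of M-values factors (trims of 30% on ratios and 5% on means) scaled the library sizes. A gene entered the tests with 0.298 CPM (10 counts at median depth) in 8 or more libraries and a sum of 15 counts or more. limma 3.58.1 in R 4.3.3 was used with voom weights and robust moderation, one fit for the lines and one with a mean for each line and replicate set, and Benjamini-Hochberg adjustment at 0.05. It was tested on simulated counts. Exact 95% intervals of count ratios came from SciPy, and the floor of 3 counts covers counting error only. Members, lists and the replicate split were chosen with earlier results of these data known. Named were all members, their overlapping genes, from each list the 3 largest and 3 smallest line differences and the 2 largest absolute replicate-set differences per line past the threshold, and the 2 nearest profiles per member. Some genes beside ZEB1 (others there are not reported here), CDH1 between the lines, CDH2, VIM and FN1, CLDN1, DCT and AXL between the A101D sets, and the untested ligands and receptors were named after their values were seen.

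Alternatives were other factors (median of ratios, upper quartile, total counts), no filter, a filter at 1 CPM, limma-trend, an adjusted p of 0.01, a test against 2-fold (treat), the replicate block, each replicate left out and each replicate set alone. A filter in 4 libraries was added after seeing the data.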

Additional observations from a re-analysis of the deposited data

Results flagged for a closer look

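The EDNRB level of MeWo replicate 4, 51.3 CPM, lay apart from the other 7 MeWo libraries, which ran from 57.5 to 61.3 CPM. The gap took 0.623 of the range of the line, above Dixon's critical value for 8 libraries. It was the 1 group past the critical value of 53 checked, where chance gives 2.65.

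For 5 genes the difference between replicates 5 to 8 and 1 to 4 was not the same in the lines by the interaction term of limma-voom. The log2 difference (MeWo minus A101D) was 0.51 for MITF, 0.33 for PAX3, 0.41 for ZEB2, 0.63 for SNAI2 and 0.59 for EDNRB. In each of them the A101D libraries of replicates 5 to 8 were all below those of replicates 1 to 4.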

How the results depend on the processing

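Over 54 member results and 1404 alternative values, 1354 kept their side of the threshold, 39 lost the threshold (27 of them in the test against 2-fold) and 11 gained it. No difference past the threshold changed sign. Some near 0 that did not pass did change sign: MITF, SOX10 and EDNRB between the MeWo sets, SOX10 and TFAP2A between the A101D sets, and PAX3 between the lines in replicates 1 to 4. PAX3 between the lines lost it in replicates 1 to 4 alone (limma-voom adjusted p = 0.417) and at 0.01, and EDNRB in replicates 5 to 8 alone (0.456). Depth limits ZEB1 in MeWo and SOX9, which rest on few counts.

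In the test against 2-fold, the genes called over all tested were 5038 between the lines, 5075 in replicates 1 to 4, 6260 in replicates 5 to 8, 1151 between the A101D sets, 2 between the MeWo sets and 582 for the interaction. The MeWo sets gave 1634 genes at 0.01 and 1892 with no filter. Their split of 1385 higher and 1620 lower became 1076 and 1985 with median-of-ratios factors and 2077 and 1038 on total counts.

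Leaving out 1 replicate at a time gave 14951 to 15273 genes between the lines, 15350 to 15745 in replicates 1 to 4, 16120 to 16474 in replicates 5 to 8, 12519 to 13215 between the A101D sets, 2164 to 3207 between the MeWo sets and 9681 to 10127 for the interaction.

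The replicate numbers did not pair the libraries of the lines (correlations of same-numbered deviations -0.0182 to 0.0632, own number best in 3 of 8). With the replicate block, 15327 genes were called between the lines, 15694 and 16400 within the replicate sets and 10141 for the interaction, and no member call of 36 changed. The sets within a line share no number and could not be blocked.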
